A study of Homo sapiens with 18 samples.

Results

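The replication-independent histone genes described here are 9 genes whose messages carry a poly(A) tail: the H2A.Z genes *H2AFZ* and *H2AFV*, the H2A variants *H2AFX* and *H2AFJ*, the macroH2A genes *H2AFY* and *H2AFY2*, the H3.3 genes *H3F3A* and *H3F3B*, and the linker histone gene *H1FX*. They were chosen by symbol, and all 9 were found among the 38716 symbols of the tables. The measurements came from human lung fibroblasts of the IMR90 line, of fetal origin, in 18 libraries, 3 for each of 3 conditions and 2 assays. Young cells proliferated at low passage, old cells had reached replicative senescence (RS) at high passage, and ICM cells were taken at low passage and given inflachromene (ICM), a small molecule that binds HMGB1 and HMGB2, both chromatin proteins. By the study's methods, 3 lysates of each condition were split between mRNA-seq of poly(A)-selected RNA and Ribo-seq, which counts the mRNA fragments covered by ribosomes (footprints). The labels name poly(A) RNA but describe extraction of total RNA with Trizol, and the design text of the series gives other sample numbers (4 young, 4 old and 2 ICM). The methods were followed here for the shared lysate and the poly(A) selection. The labels give no dose or duration of ICM and no dates. A duration of treatment for the ICM Ribo-seq is stated in the study's text. The study describes its data on RS entry as generated earlier than its ICM data, and an effect of that time cannot be told apart from the condition in comparisons with old cells.

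Histones are the proteins around which DNA is wound. Replication-dependent histones are made in S phase from clustered genes whose messages end in a stem-loop in place of a poly(A) tail, whereas replication-independent variants are made throughout the cell cycle and in cells that no longer divide. H3.3 and H2A.Z are placed at active genes and promoters, macroH2A is linked to silent chromatin, H2A.X is phosphorylated at DNA breaks, H2A.J has been described as accumulating in senescent fibroblasts, and linker histones bind where DNA enters and leaves the nucleosome.

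The genes lie apart in the genome, on GRCh37 and by the representative transcript of the GENCODE annotation. *H2AFZ* (now H2AZ1) is at chr4:100869245-100871432 on the minus strand and *H2AFV* (H2AZ2) at chr7:44871577-44887686 on the minus strand, each with 5 exons and a coding sequence (CDS) of 387 bases. *H3F3A* (H3-3A) is at chr1:226250417-226259720 on the plus strand and *H3F3B* (H3-3B) at chr17:73772515-73775860 on the minus strand, each with 4 exons and a CDS of 411 bases. *H2AFY* (MACROH2A1, chr5:134670071-134734921, minus strand) and *H2AFY2* (MACROH2A2, chr10:71812602-71872038, plus strand) each have 9 exons and a CDS of 1119 bases. The remaining 3 genes have 1 exon. These are *H2AFX* (H2AX) at chr11:118964584-118966175 on the minus strand, *H2AFJ* (H2AJ) at chr12:14927339-14927958 on the plus strand and *H1FX* (H1-10) at chr3:129033614-129035129 on the minus strand.

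How far reads can be given to 1 gene differs between the members, and the sequences show why this matters most for H3.3. Bases 208 to 237 of the coding sequence, counted from the A of the start codon (codons 70 to 79), are printed for both H3.3 genes and for a copy of each, with capitals where a base differs from *H3F3A*. H3F3AP4 is a processed pseudogene at chr2:175584636-175585046, and H3F3C (now H3-5) is a gene of 1 exon on chromosome 12.
H3F3A: cgtctggtgcgagaaattgctcaggacttt
H3F3AP4: cgtctggtgcgagaaattgctcaggacttt
H3F3B: AgGTtggtgAgGgaGatCgcGcaggaTttC
H3F3C: AgGTtggtgAgGgaGatCgcGcaggaTttC

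The 411 coding bases of *H3F3A* were the same as those of H3F3AP4 at every position. *H3F3B* and H3F3C shared 397 of 408 aligned bases (97.3%), whereas *H3F3A* and *H3F3B* shared 323 of 411 (78.6%) and had no stretch of 28 bases in common. In the window shown, *H3F3B* differed from *H3F3A* at 10 positions. Coding reads can therefore separate the 2 H3.3 genes from each other but not *H3F3A* from its pseudogene. The H2A.Z genes are also distinct, as bases 94 to 123 (codons 32 to 41) show, with capitals in *H2AFV* where it differs from *H2AFZ*.
H2AFZ: cgtattcatcgacacctaaaatctaggacg
H2AFV: cgCatCcaCAgacacTtGaaGActCgCacC

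The 2 H2A.Z coding sequences shared 311 of 387 bases (80.4%) and no stretch of 28 bases. Against every annotated transcript, 58.6% of the 28-base stretches of the *H2AFZ* CDS and 44.7% of those of *H2AFV* occurred in transcripts of another symbol, mostly pseudogenes. The shares were 100% for *H3F3A* (29 other symbols), 46.4% for *H3F3B*, 19.0% for *H2AFX* and 6.89% for *H2AFJ*. They were 0 for *H2AFY*, *H2AFY2* and *H1FX*, whose coding reads are thus the least ambiguous.

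*H2AFX* is the member whose message can end either way, with a tail or with the stem-loop of the S phase histones. The histone stem-loop consensus was searched by name on the transcribed strand of annotated 3′ UTRs, and of the 9 members it was found in *H2AFX*, starting 50 bases after the stop codon. The stretch is printed with the stem-loop in capitals.
H2AFX: ccacaaaGGCCCTTTTAAGGGCCaccaccg

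The same search found the motif in 87 of 18922 genes with a 3′ UTR sequence (0.46%) and in 64 of 64 genes of the histone clusters. If the RNA was poly(A)-selected as the methods state, the mRNA-seq values of *H2AFX* below are those of its tailed form, while its footprints can come from either form.

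In mRNA-seq the libraries held 7902427 to 14144455 reads in coding genes, and a member had at least 70 reads in every library. In Ribo-seq the CDS reads ran from 46239 (ICM replicate 3) to 1718521 (young replicate 3), and the 9 members together had 75, 977 and 2259 reads in the young libraries, 1175, 45 and 397 in the old libraries and 133, 53 and 33 in the ICM libraries. In ICM replicate 3 all 9 members had under 10 footprint reads, and in young replicate 1 and old replicate 2 the CDS took only 34.4% and 15.0% of the Ribo-seq reads. Levels are given as counts scaled to the TMM-adjusted library size (CPM), unless stated per length. They are thus relative to the other genes of a library, and amounts per cell were not measured. Of the markers of lung cell types, the 8 fibroblast genes were present in every library, and summed to 30607 to 34889 CPM in young, 29225 to 34267 in old and 12312 to 12571 in ICM mRNA-seq. Epithelial and leukocyte markers summed to at most 1.74 and 1.04 CPM, and endothelial markers to 0.61 to 0.67 CPM in young and 3.53 to 4.41 in ICM libraries. All libraries are of 1 fibroblast line. Of the 8 fibroblast genes, 7 were called lower and 1 not called in ICM vs young cells. Over all genes tested, 36.1% were called lower there. *COL1A1* had 14509.5 ± 1099 CPM in young, 13441 ± 1535 in old and 3064 ± 123 in ICM cells. What lay behind the lower marker sum in ICM cells was not tested.

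Relative to the other genes, most of these genes fell in both kinds of senescent cell. In mRNA-seq, all 9 were tested, and against young cells 8 were lower and 1 higher in ICM cells and 7 were lower, 1 higher and 1 not called in old cells (edgeR's quasi-likelihood test, Benjamini-Hochberg adjusted p under 0.05). Of the 13173 genes tested, 71.0% were called in ICM vs young cells and 66.1% in old vs young cells, with 34.9% and 32.4% called higher and 36.1% and 33.7% called lower. Replicates of the compared groups did not overlap for 9 members when ICM cells were set against young cells and for 8 when old cells were, and for 74.5% and 67.1% of the genes tested. The median log2 change of the members was -0.79 in ICM and -0.73 in old cells, beside -0.0070 and -0.015 over all genes tested. Summed over the members, the level went from 1186 ± 20.4 CPM in young to 753 ± 27.0 in old and 600.1 ± 5.74 in ICM cells (mean ± SD, n = 3). The 2 comparisons share the 3 young libraries, so their results are not independent of each other. The plot of mRNA-seq levels by library shows how little the replicates of a condition spread.

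**Figure D1:**
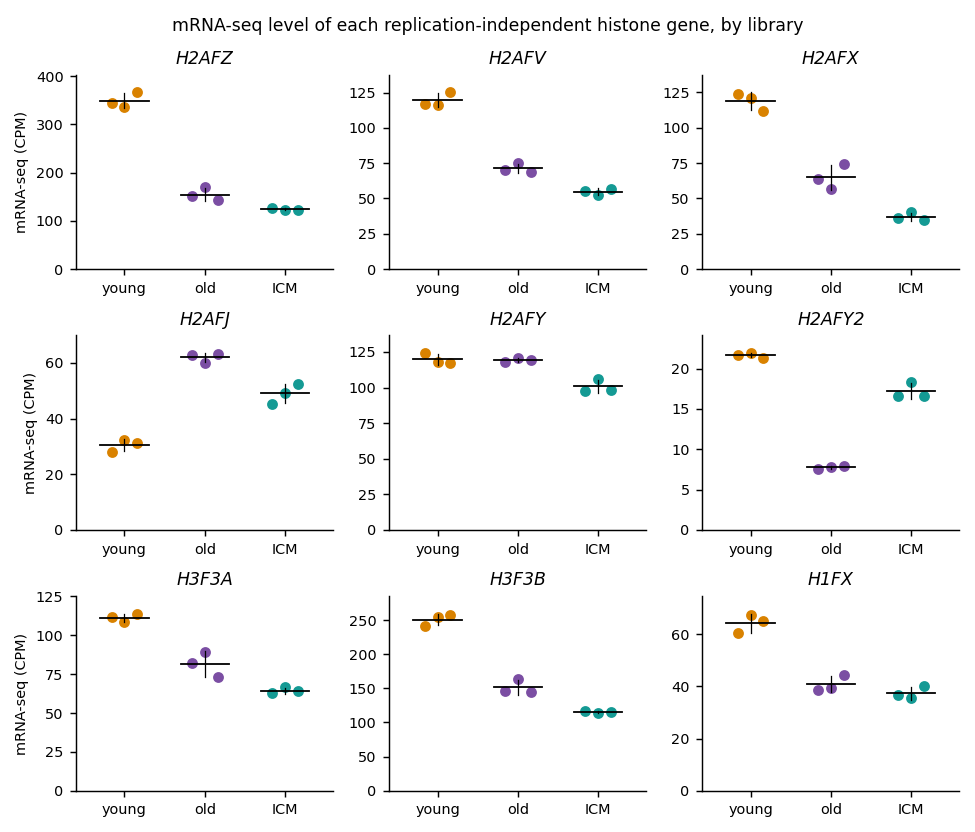
mRNA-seq level (CPM, vertical axis) of each of the 9 genes in the 3 young, 3 old and 3 ICM libraries. Each point is a library, horizontal lines are means and vertical lines are SD (n = 3). *H2AFJ* is lowest in young cells, *H2AFY2* is lowest in old cells, and *H2AFZ*, *H2AFV*, *H2AFX*, *H3F3A* and *H3F3B* step down from young to old to ICM cells.

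*H2AFZ*, the main source of H2A.Z, was the most abundant member. Its level was 344, 336 and 367 CPM in the young libraries, 151, 170 and 142 in the old and 126, 123 and 123 in the ICM libraries. The 3 groups did not overlap, in the order young, old, ICM. Log2 changes were -1.49 ± 0.07 (SE) in ICM cells (adjusted p = 9.15e-15) and -1.17 ± 0.07 in old cells (adjusted p = 1.12e-12).

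*H2AFV*, which encodes the second H2A.Z protein, followed the same order from a lower level. It had 117, 117 and 125 CPM in the young, 69.9, 75.2 and 68.9 in the old and 55.4, 52.4 and 56.8 in the ICM libraries. The groups were again separate, and the log2 changes were -1.13 ± 0.07 in ICM (adjusted p = 6.37e-13) and -0.75 ± 0.06 in old cells (adjusted p = 9.89e-10).

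The 2 H2A.Z genes did not fall by the same amount. The log2 ratio of *H2AFV* to *H2AFZ* reads was -1.54 ± 0.01 in young cells, -1.11 ± 0.07 in old cells and -1.18 ± 0.06 in ICM cells (mean ± SD, n = 3). Young libraries lay below every senescent library, while old and ICM libraries overlapped. An exact permutation test of the 3 groups over the 9 libraries gave p = 0.00714, or 0.0214 adjusted over 6 such ratios, where 0.00357 is the smallest p that the arrangements of 9 libraries allow. Without old replicate 3 it missed the threshold (adjusted p = 0.0536 by the exact permutation test). The direction of this ratio depended on which part of the message was counted. With CDS reads alone the ratio was lower by 0.13 in ICM than in young cells and did not pass the test (exact permutation, adjusted p = 0.332).

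The reads of *H2AFV* also lay differently along its message. Its annotated 3′ UTR has 2523 bases, the longest among the members. The 3′ UTR held 52.3%, 50.3% and 50.1% of its reads in the young, 63.8%, 68.9% and 68.4% in the old and 62.1%, 64.9% and 57.5% in the ICM libraries. All 6 senescent libraries lay above all 3 young libraries. *H2AFV* CDS reads fell from 42.8 ± 3.03 CPM in young to 17.0 ± 2.01 in old and 13.5 ± 1.21 in ICM cells, and 3′ UTR reads from 60.9 ± 2.14 to 47.8 ± 3.66 and 33.7 ± 0.888. Counted on the CDS alone, its log2 change was -1.63 ± 0.10 in ICM and -1.31 ± 0.10 in old cells, beside -1.13 and -0.75 over the whole message. The exact permutation test of the share gave p = 0.00714, which did not pass after adjustment over the 9 members (0.0643), and no other member passed either. Over all genes the 3′ UTR share was 24.9% ± 0.219 in young cells, 27.6% ± 1.14 in old cells and 25.2% ± 0.774 in ICM cells. Without old replicate 1 the adjusted p was 0.0321 for *H2AFV* and also for *H3F3A*. Since 44.7% of the 28-base stretches of the *H2AFV* CDS occur in its pseudogene, how the authors' counting divided such reads bears on this share and was not tested.

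**Figure D2:**
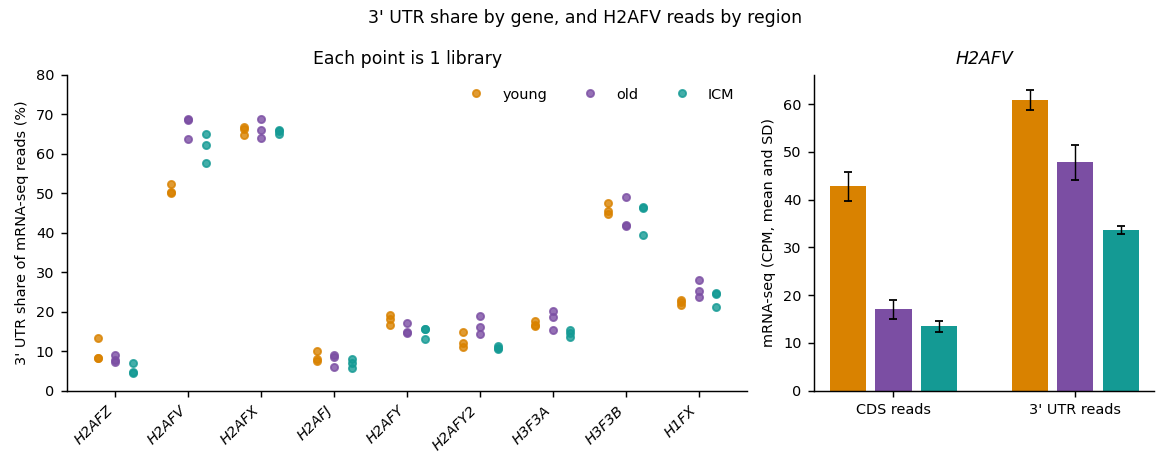
Left, share of each gene's mRNA-seq reads that lay in its 3′ UTR (%), with 1 point per library in 3 conditions. Right, *H2AFV* reads in the CDS and in the 3′ UTR (CPM, bars are means and whiskers SD, n = 3). The *H2AFV* share is 50.1% to 52.3% in young libraries and 57.5% to 68.9% in the others, and its CDS reads are 42.8 CPM in young, 17.0 in old and 13.5 in ICM cells.

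*H2AFX*, the variant marked at DNA breaks, showed the widest range of group means among the members. It had 124, 121 and 112 CPM in the young, 63.4, 56.9 and 74.1 in the old and 35.9, 40.2 and 34.7 in the ICM libraries. The groups were separate, with ICM libraries lowest. This was a log2 change of -1.69 ± 0.09 in ICM (adjusted p = 5.51e-14) and -0.88 ± 0.08 in old cells (adjusted p = 3.18e-09), and ICM cells were below old cells by -0.81 ± 0.09 (adjusted p = 4.02e-08).

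*H2AFJ*, the H2A.J gene, was the member whose mRNA-seq level rose in both senescent states. It had 28.05, 32.3 and 31.3 CPM in the young, 62.7, 60.1 and 63.04 in the old and 45.4, 49.3 and 52.4 in the ICM libraries. No library of 1 condition reached into another, and old cells were highest. The rise on the log2 scale was 1.01 ± 0.08 in old (adjusted p = 1.42e-10) and 0.67 ± 0.08 in ICM cells (adjusted p = 9.09e-08), and ICM cells stayed below old cells by -0.34 ± 0.07 (adjusted p = 0.000323).

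The macroH2A genes parted from each other. *H2AFY*, which encodes the more abundant macroH2A1, had 124, 118 and 117 CPM in the young, 118, 121 and 119 in the old and 97.8, 106 and 98.6 in the ICM libraries. Young and old libraries overlapped, and the 3 ICM libraries lay below both. Its log2 change was -0.25 ± 0.06 in ICM cells (adjusted p = 0.000939), and in old cells -0.0024 with a 95% interval of -0.13 to 0.12 (adjusted p = 0.974).

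*H2AFY2*, which encodes macroH2A2, was by far the scarcest member and fell most in old cells. It had 21.7, 21.9 and 21.4 CPM in the young, 7.53, 7.86 and 7.88 in the old and 16.6, 18.3 and 16.6 in the ICM libraries. The groups were separate, in the order young, ICM, old. It changed by -1.48 ± 0.10 in old (adjusted p = 2.32e-11) and -0.34 ± 0.09 in ICM cells (adjusted p = 0.0018), and ICM cells were above old cells by 1.14 ± 0.10 (adjusted p = 2.09e-09). The log2 ratio of *H2AFY2* to *H2AFY* was -2.46 ± 0.04 in young cells, -3.94 ± 0.02 in old cells and -2.55 ± 0.02 in ICM cells (exact permutation test over 9 libraries, p = 0.00357, adjusted 0.0214).

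For H3.3, the pair of genes encodes the same protein. *H3F3A* had 112, 109 and 114 CPM in the young, 81.9, 89.6 and 73.05 in the old and 62.6, 66.5 and 64.3 in the ICM libraries. The groups did not overlap, and the log2 changes were -0.79 ± 0.07 in ICM (adjusted p = 1.35e-09) and -0.45 ± 0.07 in old cells (adjusted p = 7.78e-06). *H3F3B* had 241, 254 and 257 CPM in the young, 145, 164 and 144 in the old and 117, 114 and 115 in the ICM libraries. Its groups were also separate, with log2 changes of -1.12 ± 0.06 in ICM (adjusted p = 4.8e-13) and -0.73 ± 0.06 in old cells (adjusted p = 1.09e-09).

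*H3F3B* thus lost more of its reads than *H3F3A*. Their log2 ratio was 1.17 ± 0.06 in young cells, 0.90 ± 0.08 in old cells and 0.84 ± 0.06 in ICM cells (exact permutation test over 9 libraries, p = 0.0179, adjusted 0.0268). Every young library had a higher ratio than every senescent library, but without young replicate 2 or old replicate 3 the test was not passed (exact permutation, adjusted p = 0.050 and 0.0643). With CDS reads alone the ICM ratio was lower than the young ratio by -0.25 and the test was not passed (exact permutation, adjusted p = 0.293).

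The H3.3 values are shared with the copies printed above. In mRNA-seq the H3F3AP4 pseudogene was given 1 to 1.014 times the reads of *H3F3A* in each of the 9 libraries, for example 901 beside 900 in young replicate 1, and in Ribo-seq 1 to 1.097 times. In young replicate 1, 537.5 of the 900 mRNA-seq reads of *H3F3A* lay in its CDS. The near-equal number in mRNA-seq is thus that of the whole message, UTRs included, and not of the compared coding bases alone. H3F3C was given 0.546 to 0.595 times the CDS reads of *H3F3B* in mRNA-seq and 0.542 to 1 times in Ribo-seq. With the copies added, the level was 223 ± 5.21, 164 ± 17.1 and 129 ± 3.51 CPM for *H3F3A* and 334 ± 5.66, 205 ± 15.0 and 156 ± 2.15 CPM for *H3F3B* in young, old and ICM mRNA-seq, and no call of either gene changed in any comparison of mRNA-seq or Ribo-seq. For *H3F3A* this could hardly come out otherwise, since its copy was given near-equal reads in each library. The summed levels may hold the same reads more than once, so they do not settle how much of each value is the gene's own. The 3′ UTR of H3F3C was given 129.5 to 292 mRNA-seq reads per library, beside 534 to 1382 for that of *H3F3B*, and whether these reads were its own was not tested.

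**Figure D3:**
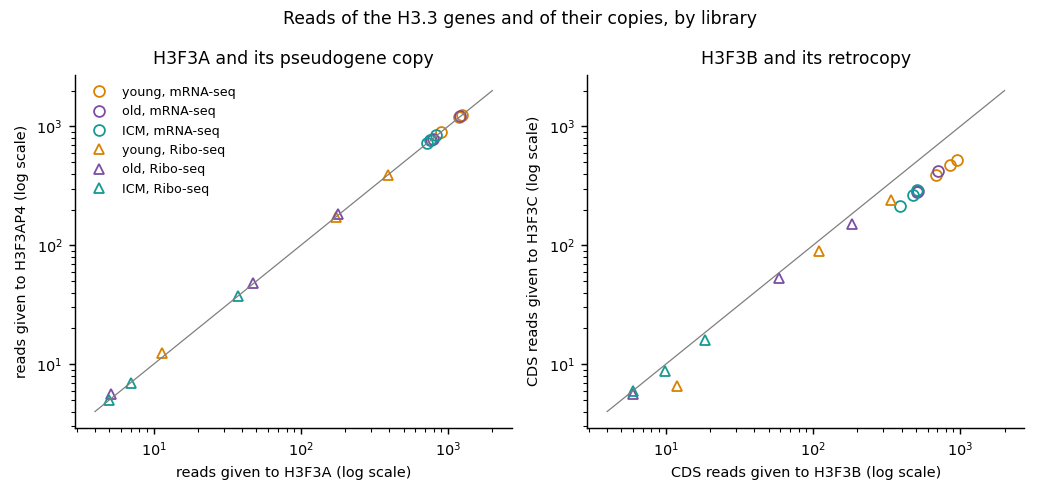
Reads given to each H3.3 gene (horizontal axis, log scale) and to its copy (vertical axis, log scale) in the 18 libraries, with the line of equal reads. H3F3AP4 lies on the line with *H3F3A*, at 1 to 1.097 times its reads, and H3F3C lies below *H3F3B* at 0.542 to 1 times its CDS reads.

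*H1FX*, a linker histone variant made outside S phase, had 60.3, 67.4 and 64.9 CPM in the young, 38.6, 39.6 and 44.3 in the old and 36.6, 35.5 and 40.3 in the ICM libraries. Young libraries were highest, and old and ICM libraries overlapped. The fall was -0.78 ± 0.08 in ICM (adjusted p = 5.45e-09) and -0.66 ± 0.08 in old cells (adjusted p = 1.11e-07), and ICM and old cells differed by -0.12 with a 95% interval of -0.29 to 0.04 (adjusted p = 0.176).

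Set directly against each other, ICM and old cells differed in 8 of the 9 members, 7 lower and 1 higher in ICM, where 63.3% of the genes tested were called, 32.6% lower and 30.7% higher. Their replicates did not overlap for these 8 members, and for 66.3% of genes. The member higher in ICM cells was *H2AFY2*. The other 7, *H2AFZ*, *H2AFV*, *H2AFX*, *H2AFJ*, *H2AFY*, *H3F3A* and *H3F3B*, were lower by log2 differences between -0.25 and -0.81. With a minimum log2 difference of 0.6, 2 of the 8 were left, *H2AFX* and *H2AFY2*, and the share of all genes left is not given here.

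**Figure D4:**
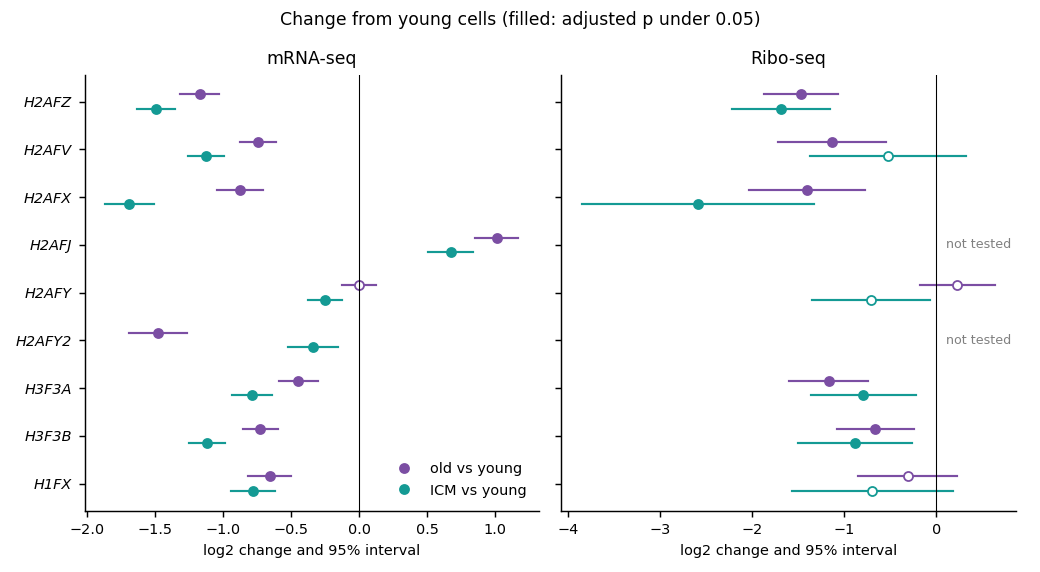
Log2 change from young cells (horizontal axis) with 95% intervals, for old and ICM cells, in mRNA-seq (left) and Ribo-seq (right). Filled points have an adjusted p under 0.05. In mRNA-seq *H2AFJ* lies above 0 in both, *H2AFY* in old cells is an open point, and the Ribo-seq intervals are wider, with *H2AFJ* and *H2AFY2* not tested.

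Between genes, levels can be compared only per length. In CDS reads per kilobase, scaled to library size (RPKM), of young mRNA-seq, *H2AFZ* came first at 511 ± 45.1, then *H3F3B* at 201 ± 4.42, *H3F3A* at 148 ± 14.3 and *H2AFV* at 111 ± 7.82, and none of these neighbours overlapped. *H2AFY* (74.6 ± 7.54) and *H2AFX* (72.1 ± 3.795) overlapped, as did *H1FX* (56.4 ± 3.82) and *H2AFJ* (48.97 ± 3.295). *H2AFY2* (14.1 ± 0.826) came last. In old and in ICM cells the order opened again with *H2AFZ* (235 ± 27.998 and 176 ± 15.7 RPKM), *H3F3B* (126 ± 9.52 and 93.4 ± 5.51) and *H3F3A* (111 ± 14.8 and 81.5 ± 6.60). *H2AFJ* came next in both, at 102 ± 2.58 in old and 71.9 ± 2.05 in ICM cells, and in old cells it overlapped *H3F3A*, which overlapped *H3F3B*. *H2AFX* was near the end in ICM cells at 21.3 ± 2.58, above *H2AFY2* at 10.8 ± 0.428. Because *H3F3A* reads were given in near-equal number to its pseudogene, its place holds for its own column only.

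The footprints of some members were also lower in senescent cells. In Ribo-seq, 7 members had enough reads to be tested, and against young cells 4 were lower and 3 not called in ICM, and 5 were lower and 2 not called in old cells. Of the 4643 genes tested, 26.6% and 36.3% were called in these comparisons, 12.9% and 17.0% lower and 13.7% and 19.3% higher. The replicates did not overlap for 5 of the 7 in each, and for 30.4% and 38.9% of genes. The median log2 change of the 7 was -0.79 in ICM and -1.13 in old cells, beside -0.00045 and 0.017 over all genes tested. DESeq2 called 2 members in each, *H2AFZ* and *H2AFX* in ICM and *H2AFZ* and *H3F3A* in old cells. The shares above are those of edgeR, and the share of all genes called by DESeq2 is not given here. Summed over the 9 members, the level was 1495 ± 62.5 CPM in young, 852 ± 47.5 in old and 711 ± 50.3 in ICM cells.

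*H2AFZ* had 436, 582 and 510 CPM in the young, 196, 201 and 183 in the old and 128, 218 and 206 in the ICM Ribo-seq libraries, from 22, 364 and 802, 276, 10 and 89, and 26, 16 and 9 reads. Young libraries stood above all others, and old and ICM libraries overlapped. Against young cells it changed by -1.68 ± 0.26 in ICM (adjusted p = 6.12e-06) and -1.47 ± 0.20 in old cells (adjusted p = 4.06e-07). *H2AFV* had 39.6, 91.1 and 83.99 CPM in the young, 36.98, 40.2 and 41.05 in the old and 68.98, 40.9 and 45.7 in the ICM libraries. Its groups overlapped, since young replicate 1 with 2 reads was as low as the old libraries. Its log2 change was -1.13 ± 0.29 in old cells (adjusted p = 0.00248, or 0.108 without old replicate 1; without young replicate 2 or 3 it had too few reads to be tested) and -0.52 in ICM cells with a 95% interval of -1.37 to 0.32 (adjusted p = 0.380).

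*H2AFX* had 99.04, 105 and 89.7 CPM in the young, 38.4, 60.4 and 28.7 in the old and 9.85, 0 and 68.5 in the ICM libraries. Young libraries were highest, and the ICM values came from 2, 0 and 3 reads. The changes were -1.40 ± 0.31 in old cells (adjusted p = 0.000556, or 0.116 and 0.0758 without young replicate 2 or 3) and -2.59 ± 0.62 in ICM cells (adjusted p = 0.00184), and without ICM replicate 1 the latter was -1.99 with an adjusted p of 0.0765. Of the 28-base stretches of its CDS, 19.0% occur under 20 other symbols, most of them in the clustered gene H2AC25 (6.67%). Summed footprints of the clustered histone genes were 9616 CPM in young, 1980 in old and 2527 in ICM cells. How far shared reads bear on the *H2AFX* values was not tested.

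*H3F3A* had 238, 278 and 249 CPM in the young, 128, 101 and 96.5 in the old and 182, 68.2 and 160 in the ICM libraries. *H3F3B* had 238, 174 and 214 CPM in the young, 131, 121 and 119 in the old and 88.7, 136 and 137 in the ICM libraries. For both, every young library stood above every senescent library. The log2 change in old cells was -1.17 ± 0.21 for *H3F3A* (adjusted p = 4.42e-05) and -0.66 ± 0.21 for *H3F3B* (adjusted p = 0.0117), and in ICM cells -0.79 ± 0.28 (adjusted p = 0.0336) and -0.89 ± 0.31 (adjusted p = 0.0284). The ICM calls were lost without young replicate 2 or 3 for both, without ICM replicate 2 for *H3F3A* (-0.60, adjusted p = 0.153) and without ICM replicate 1 for *H3F3B* (-0.65, adjusted p = 0.315). In old cells the call of *H3F3B* was lost without young replicate 2 or 3 or old replicate 1 or 3 (adjusted p = 0.0576 to 0.217), while that of *H3F3A* held without each library in turn.

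*H2AFY* had 198, 155 and 157 CPM in the young, 169, 221 and 203 in the old and 98.5, 95.5 and 91.3 in the ICM libraries. The 3 ICM libraries lay below all others, from 20, 7 and 4 reads. Against old cells the ICM level was lower by -0.94 ± 0.31 (adjusted p = 0.0388), where 13.4% of genes were called, 7.62% lower and 5.79% higher, and 22.9% did not overlap. It was the only member called of the 7 tested in that comparison. The call was lost with DESeq2, and also without old replicate 3, ICM replicate 1 or ICM replicate 2. Against young cells the change was -0.71 in ICM (95% interval -1.35 to -0.07, adjusted p = 0.0912) and 0.23 in old cells (-0.18 to 0.63, adjusted p = 0.385).

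*H1FX* had 218, 97.5 and 87.2 CPM in the young, 78.2, 60.4 and 82.1 in the old and 44.3, 109 and 45.7 in the ICM libraries, with young replicate 1 far above the other two young libraries on 11 reads. Neither change from young cells passed, at -0.70 in ICM (95% interval -1.57 to 0.17) and -0.31 in old cells (-0.85 to 0.23). The last 2 members were too sparse for the test. *H2AFJ* had 1, 25 and 41 reads in the young, 74, 5 and 19 in the old and 4, 4 and 0 in the ICM libraries. *H2AFY2* had 0, 24 and 33, then 7, 0 and 11, then 3, 0 and 0 reads. In a fit without the filter on low counts no adjusted p of these 2 was below 0.0521. Against young cells this fit gave *H2AFJ* 0.71 ± 0.37 in old (adjusted p = 0.197) and -0.48 ± 0.67 in ICM cells (adjusted p = 0.714). The ICM value thus had the opposite sign to the *H2AFJ* change in mRNA-seq. *H2AFY2* had -1.38 ± 0.52 in old (adjusted p = 0.0521) and -1.67 ± 0.89 in ICM cells (adjusted p = 0.240).

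**Figure D5:**
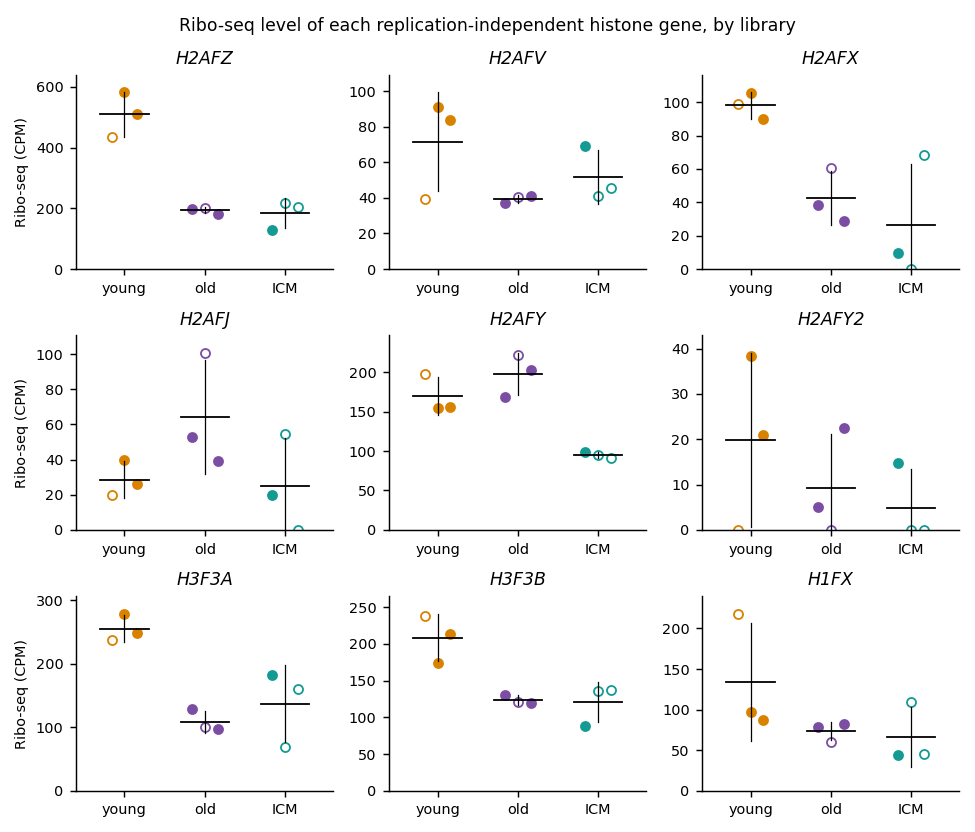
Ribo-seq level (CDS reads, CPM, vertical axis) of each of the 9 genes by library. Open points are the 4 libraries with 46239 to 78980 CDS reads, horizontal lines are means and vertical lines SD (n = 3). Young libraries lie above the rest for *H2AFZ*, *H2AFX*, *H3F3A* and *H3F3B*, ICM libraries lie below the rest for *H2AFY*, and the other 4 genes overlap between at least 2 groups.

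Whether footprints moved by more than the message was tested as translational efficiency, which sets footprints against the mRNA of the same lysate. None of the 7 tested members was called by edgeR's quasi-likelihood test in any of the 3 comparisons, where 2.45%, 1.45% and 0.260% of 4618 genes were called in ICM vs young, old vs young and ICM vs old cells, and DESeq2 called none either. Higher calls made up 1.41%, 0.845% and 0.0650% of genes and lower calls 1.04%, 0.606% and 0.195%. At an unadjusted p under 0.05 there were 0, 1 and 1 members. These were *H3F3A* in old vs young cells, at -0.63 ± 0.24 (adjusted p = 0.214), and *H2AFY* in ICM vs old cells, at -0.75 ± 0.33 (adjusted p = 0.390). Without the lysate as a block, *H3F3A* passed in old vs young cells at -0.63 (adjusted p = 0.0182). With mRNA counted on the CDS alone, no member was called by the quasi-likelihood test. *H2AFV* in ICM vs young cells was then at 1.01 ± 0.48 (adjusted p = 0.303). *H3F3A* in ICM vs old cells was at 0.71 ± 0.34 (adjusted p = 0.479). Both of these then also had an unadjusted p under 0.05. If the RNA was poly(A)-selected, the ratio of *H2AFX* sets footprints of either form against its tailed form alone. The 95% intervals of the log2 differences were between 0.823 and 3.27 wide, so that differences of moderate size were not detectable at this depth. The log2 ratio of *H2AFV* to *H2AFZ* footprints was -2.71 ± 0.14 in young cells, -2.29 ± 0.15 in old cells and -1.79 ± 0.78 in ICM cells (exact permutation test over 9 libraries, p = 0.0179, adjusted 0.0268), and it no longer passed when a young or an old library was left out. The ratios of *H3F3B* to *H3F3A* and of *H2AFY2* to *H2AFY* did not pass in Ribo-seq (exact permutation, adjusted p = 0.646 and 0.424).

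The clustered, replication-dependent histone genes gave other values in the same libraries. Of 74 such symbols, 34 were tested in mRNA-seq, and 32 were higher and 2 not called in ICM cells and 29 higher, 1 lower and 4 not called in old cells. Of all genes tested, 34.9% and 32.4% were called higher and 36.1% and 33.7% lower in ICM and old cells. Their summed mRNA-seq level was 116 ± 5.11 CPM in young cells, 431 ± 4.68 in old cells and 927 ± 15.9 in ICM cells, while that of the 9 members was 1186, 753 and 600.1. In Ribo-seq the sums were 9616 ± 322.7 in young, 1980 ± 285 in old and 2527 ± 1392 in ICM cells. In poly(A)-selected RNA the clustered genes are seen only through messages that carry a tail. The 4 proliferation markers (*MKI67*, *TOP2A*, *CCNB1*, *CDK1*) summed to 460 ± 10.3, 112 ± 7.95 and 14.9 ± 2.67 CPM in young, old and ICM mRNA-seq and all 4 were called lower in both, and their part in the members' changes was not tested. The targets of the inhibitor, *HMGB1* and *HMGB2*, summed to 489.6 ± 23.04, 164 ± 7.22 and 119 ± 0.627 CPM.

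Variant histones are placed into chromatin by chaperones and exchange complexes, and most of those genes were lower too. Of 29 listed, all tested in mRNA-seq, 3 were higher and 19 lower in ICM and 3 higher and 20 lower in old cells than in young cells, with median log2 changes of -0.39 and -0.45. Over all genes tested, 71.0% and 66.1% were called, 36.1% and 33.7% lower. With a minimum log2 change of 0.6, 14 of the 29 were called in ICM and 13 in old cells. The share of all genes past that minimum is not given here, so these 2 counts cannot be judged against it. Among 16 tested in Ribo-seq, 1 was higher and 7 lower in ICM and 8 were lower in old cells, where 26.6% and 36.3% of all genes were called. These footprint counts moved when single libraries were left out. Of the deposition genes, 5 were called in ICM cells without young replicate 2 or 3 and 4 without ICM replicate 1, and in old cells 4 without young replicate 2 and 5 without young replicate 3, old replicate 1 or old replicate 3. The 7 H3.3 deposition genes (the HIRA complex with *ASF1A*, and *DAXX* with *ATRX*) had 1 higher and 3 lower in ICM and 1 higher and 5 lower in old cells, against the shares of 71.0% and 66.1% called over all genes. *ASF1A*, a chaperone that hands H3 and H4 to the HIRA complex, rose from 23.2 ± 1.41 CPM in young to 57.9 ± 3.44 in ICM cells (log2 change 1.33 ± 0.09) and had 18.1 ± 2.11 in old cells. Its footprints rose as well in ICM cells, by 2.08 ± 0.38 (adjusted p = 8.68e-05).

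The 5 genes of replication-coupled deposition were all lower in both states, where 36.1% and 33.7% of all genes tested were called lower in ICM and old cells. *CHAF1A* and *CHAF1B*, subunits of chromatin assembly factor 1, had log2 changes of -1.82 ± 0.13 and -2.80 ± 0.15 in ICM cells, and *ASF1B*, the paralogue of *ASF1A* tied to proliferation, had -4.97 ± 0.21, from 23.2 ± 2.67 to 0.716 ± 0.368 CPM. *NASP*, which holds soluble H3 and H4, had -2.15 ± 0.07 in ICM and -1.59 ± 0.07 in old cells, and *CHAF1B* had -1.34 ± 0.12 in old cells.

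Of 12 genes of H2A.Z exchange, 2 were higher and 7 lower in ICM and 1 higher and 6 lower in old cells, which is near the 71.0% and 66.1% called over all genes. *ANP32E*, which removes H2A.Z from chromatin, went from 74.3 ± 5.37 to 23.8 ± 2.79 CPM in ICM cells (log2 change -1.65 ± 0.09), and *YEATS4*, a shared subunit of the loading complexes, had -1.48 ± 0.17. Among 4 general chaperones 3 were lower in both states, against 36.1% and 33.7% of all genes called lower in ICM and old cells. *SSRP1* and *SUPT16H*, the subunits of FACT, had -2.08 ± 0.08 and -1.16 ± 0.06 in ICM and -1.57 ± 0.08 and -1.28 ± 0.06 in old cells, and *NAP1L1* had -1.13 ± 0.07 in ICM cells. *HJURP*, the chaperone of the centromeric H3 variant, had -4.85 ± 0.14 in ICM and -1.21 ± 0.09 in old cells.

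Other variant histone genes were mostly silent. Of 10 listed, 5 were at 0 in every mRNA-seq library and 2 were tested. *CENPA*, the centromeric H3 variant, went from 15.1 ± 1.09 CPM in young to 4.18 ± 0.756 in old and 0.249 ± 0.0699 in ICM cells (log2 changes -1.87 ± 0.14 and -5.85 ± 0.24). The reads given to H3F3C fell with those of *H3F3B*, by 1.07 in ICM and 0.64 in old cells on the log2 scale. Since 97.3% of the aligned coding bases of these 2 are the same, reads may be shared, and how far the fall was that of H3F3C itself was not tested. Of 6 genes that process stem-loop messages, 1 was higher and 5 lower in ICM and 1 higher and 3 lower in old cells. In these comparisons 71.0% and 66.1% of all genes tested were called, 36.1% and 33.7% lower.

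For the 3 members with the widest range of group means, the genes nearest in pattern over the 9 mRNA-seq libraries were found by the distance between centred log2 levels, among the 7530 or 7531 other genes that averaged 20 CPM or more. Nearest to *H2AFX* were *RFWD3* (distance 0.186), *PARP1* (0.234) and *LMNB2* (0.278). *RFWD3*, a ubiquitin ligase, had 44.6 ± 2.52, 24.01 ± 1.47 and 13.1 ± 1.01 CPM in young, old and ICM cells, and *PARP1* had 149.8 ± 3.56, 76.2 ± 4.46 and 46.1 ± 1.58. Nearest to *H2AFZ* were *SEPHS1* (0.185), *SMC3* (0.198) and *SET* (0.232), of which *SET* had 341 ± 13.9, 166 ± 10.9 and 125 ± 2.22 CPM. *H2AFY2* had more distant neighbours in *C1R* (0.368), *GCNT1* (0.384) and *LDHB* (0.415), and *C1R* had 277 ± 7.13, 85.7 ± 4.37 and 190.6 ± 15.7 CPM.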

How the data were processed

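For every library the authors deposited estimated counts by gene symbol, with the 5′ UTR, CDS and 3′ UTR apart and no scaling to depth. Between 14.1% and 23.2% of a library's non-zero values were not whole. The processing notes name STAR 2.6.0c, featureCounts, DESeq2, deepTools and GRCh37, with no role given for these tables. How reads with several matches were divided is not given in the sources used here. As in the study's methods, Ribo-seq was read from the CDS and mRNA-seq from the sum of the 3 regions. Counts were rounded.

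Each assay was fitted over 9 libraries by the quasi-likelihood test of edgeR 4.0.16 (R 4.3.3), after TMM scaling and the filterByExpr filter, and p-values were adjusted over all genes tested by the Benjamini-Hochberg method. SE is the log2 change over the square root of F. Translational efficiency was the interaction of assay and condition over 18 libraries with the lysate as a block. The methods state that 3 independent replicas were grown and both libraries of a lysate came from it, and their deviations from the group means correlated with r between -0.080 and 0.136. Ratios of reads (0.5 added) and 3′ UTR shares were compared by exact permutation tests, two-sided by construction. The study used anota2seq, which was not used here. The pipeline was tested on simulated data. Alternatives were DESeq2 1.42.0, RLE scaling, no filter, other thresholds, compared groups only, blocks, CDS reads only, thinning and leaving out each library. Summing copies and leaving out both libraries with low CDS shares were chosen after seeing the data.

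The members, the deposition, processing and marker gene lists and the naming rules were chosen with earlier results of these data known. The 9 members described are named, and 1 further gene of the list is not reported here. Deposition genes are named where called with an absolute log2 change over 1 in mRNA-seq against young cells, and 3 pattern neighbours are named for each of 3 members. Other genes named beside them were chosen after their values were seen. Symbols were matched to current ones through RefSeq synonyms (9 of 9), and sequences were read from the GENCODE transcripts lifted to GRCh37.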

Additional observations from a re-analysis of the deposited data

Results flagged for a closer look

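Effects of ICM and of passage on the same gene were compared by the test of ICM against old cells (edgeR, adjusted p under 0.05), which set 9 results apart. In mRNA-seq, *H2AFY2* (log2 difference 1.14) was higher in ICM than in old cells. Lower in ICM cells were *H2AFX* (-0.81), *H3F3B* (-0.39), *H2AFV* (-0.38), *H3F3A* (-0.34), *H2AFJ* (-0.34), *H2AFZ* (-0.32) and *H2AFY* (-0.25). In Ribo-seq, *H2AFY* was lower by -0.94 in ICM cells, on 31 reads in the 3 ICM libraries. In mRNA-seq 63.3% of all genes tested, and in Ribo-seq 13.4%, were called in this comparison.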

How the results depend on the processing

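In mRNA-seq, 390 of the 405 recomputed log2 changes of members kept their direction and side of the threshold, 9 were weaker, 0 stronger and 6 reversed. In Ribo-seq these were 275 of 313, with 34 weaker, 1 stronger and 3 reversed. The reversals in mRNA-seq concerned *H2AFY* in old vs young cells, which was not called and was 0.0038 with RLE scaling, 0.0018 with DESeq2, 0.0085 with the compared groups only, 0.0089 with CDS reads only and between -0.019 and 0.031 with a library left out. With a minimum log2 change of 0.6, 2 members were called in ICM vs old mRNA-seq, with no share of all genes at that minimum to set beside them.

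Ribo-seq calls of members were less stable, and the shares of all genes called under these alternatives are not given here. DESeq2, and also a block on the replicate number, left 2 called members in each comparison with young cells and 0 in ICM vs old cells, and thinning to the shallowest library left 1, 1 and 0. With the compared groups only, ICM vs old had 0. Leaving out a library gave 2 to 4, 2 to 5 and 0 to 1. There were 2 in ICM vs young without young replicate 2, young replicate 3 or ICM replicate 1, and in old vs young 2 without young replicate 2 or 3 and 3 without old replicate 1. For *H2AFZ* in ICM vs old cells the change was 0.40 when thinned and between -0.42 and 0.039 with a library left out, and for *H3F3A* between -0.29 and 0.61, both turning without ICM replicate 1. These libraries are unequal in depth, and the cause was not tested. Same-numbered libraries of different conditions correlated with r between -0.055 and 0.103 in mRNA-seq and between 0.0047 and 0.056 in Ribo-seq. Gene levels were thus barely tied to the number, but the 5′ UTR share of mRNA-seq reads was highest in replicate 3 of each condition. It was 8.94%, 9.69% and 11.9% in young, and 10.4%, 10.6% and 13.04% in ICM libraries. In old libraries it was 9.49%, 8.95% and 10.04%. Its bearing on the 3′ UTR shares and on results from CDS reads alone was not tested. The replicate block left 9, 8 and 8 called members in mRNA-seq for ICM vs young, old vs young and ICM vs old cells. Of the deposition genes in Ribo-seq, DESeq2 called 5 in each comparison with young cells, the replicate block 5 and 4 and thinned reads 1 and 1, and leaving out a library gave 4 to 12 and 4 to 9. Without the lysate block, 1 member was called in translational efficiency for old vs young cells.

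For the ratios, ICM minus young, CDS reads alone gave -0.25 for *H3F3B* to *H3F3A* and -0.13 for *H2AFV* to *H2AFZ* in mRNA-seq. Leaving out a library gave -0.36 to -0.30 and 0.33 to 0.39 for these, and in Ribo-seq 0.47 to 1.15 for *H2AFV* to *H2AFZ*, -0.32 to 0.63 for *H3F3B* to *H3F3A* and -0.77 to 0.43 for *H2AFY2* to *H2AFY*. The difference in 3′ UTR share of *H2AFX* was 0.928 percentage points of CDS and 3′ UTR reads, and between -0.757 and 0.227 with a library left out. With a library left out it was between -3.22 and 0.379 for *H3F3B*. Footprint depth limits all Ribo-seq values, with 33 reads over the 9 members in ICM replicate 3.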
